A study of Equus caballus with 8 samples.

Results

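The genes described here encode proteins of the cytosolic ribosome. They were chosen by symbol alone, as every listed gene named RPL or RPS with a number, together with RPLP0, RPLP1 and RPLP2, without the ribosomal protein S6 kinases and RPS19BP1. The rule took 79 of 15266 named genes, of which 31 belong to the small subunit and 48 to the large subunit. RPL17 and RPL41, whose symbols the rule would take, were not among the named genes, so sums and shares leave them out. All 79 matched a protein-coding gene of RefSeq by symbol, and all 79 had enough counts to be tested. RNA had been sequenced from mesenchymal stem cells grown from bone marrow (BM-MSCs) of 4 horses, named D, J, L and W, to compare untreated cells with cells exposed to the cytokine TGF-β2. Each horse gave 1 untreated and 1 treated library, so there were 4 libraries per group and 8 in all. The marrow of each horse had been divided between the conditions, and the treated share received 1 ng/ml human recombinant TGF-β2 from isolation up to passage 3 or 4. All cultures shared low-glucose medium with fetal bovine serum, antibiotics and human basic fibroblast growth factor, and the horses were adult Thoroughbreds or their crosses.

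The cytosolic ribosome is built from ribosomal RNA and a fixed set of proteins, with the small subunit reading the mRNA and the large subunit joining the amino acids. The mRNAs of ribosomal proteins carry a 5′ terminal oligopyrimidine (TOP) tract through which the kinase complex mTORC1 and the binding protein LARP1 set their translation and stability together. Most are abundant in any growing cell, and a few have paralogs, such as RPS27L and RPL22L1, that are expressed less uniformly and are controlled apart from the core set.

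Between 39184554 and 57228675 reads over named genes were recovered per library, so that even RPL11, with the fewest counts of the 79 genes, kept at least 115 normalized counts in every library. A normalized count is a read count divided by a size factor for its library. The mesenchymal markers THY1, ENG, NT5E, CD44 and ITGB1 were expressed in all 8 libraries, with summed levels of 138766 to 309522 normalized counts. However, 3 of the 5 differed after treatment at an adjusted p under 0.05, against 30.9% of all genes tested. THY1 and ENG were lower (log2 fold changes −2.21 and −0.42, adjusted p = 0.00203 and 0.0409) and ITGB1 was higher (0.91, adjusted p = 0.0159). Without horse D, L or W the count was 1 of the 5, lower, against 1383, 2815 and 1230 of all genes tested. Without horse J 2 were higher and 2 lower, against 5227 of all genes. Of 6 leukocyte markers, CD3E was at 0 in every treated library and in 2 untreated ones, and the summed level was 526 to 862 normalized counts in treated libraries. Untreated horse J held 2873 normalized counts of these markers, against 658 to 988 in the other untreated libraries. The endothelial markers CDH5 and KDR summed to 7.10 to 26.3 normalized counts in untreated libraries and to 30.0 to 55.7 in treated ones, higher in 4 of 4 horses, with KDR called (log2 fold change 2.27, adjusted p = 0.0109; not called without horse D, J or W) and CDH5 not (0.52, adjusted p = 0.264). In bulk RNA, fewer cells of a type and less RNA per cell cannot be told apart.

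The ribosomal protein genes as a whole moved little on the size-factor scale, and what movement there was came from 1 horse. Their summed level in untreated cells was 1801913 normalized counts in horse D, 1778051 in horse J, 1826535 in horse L and 1633328 in horse W. After TGF-β2 the sums were 1867476 normalized counts in horse D, 1778173 in horse J, 1795144 in horse L and 2181273 in horse W. Horse W thus had the lowest sum of the untreated group and the highest of the treated group, and the other 3 treated libraries lay close to the untreated ones. The fold of the sum was 1.04 in horse D, 1.00 in horse J, 0.983 in horse L and 1.34 in horse W. The log2 ratio averaged 0.11 ± 0.21 (SD, n = 4), a mean smaller than the spread between horses, and it averaged 0.01 without horse W.

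As a share of all counts the same genes were lower after treatment in 3 of 4 horses. They took 4.68% of normalized counts in untreated horse D, 4.61% in horse J, 4.35% in horse L and 4.02% in horse W. In the treated libraries the shares were 4.00%, 3.92%, 3.35% and 4.12%, so that the groups overlapped through horse W. The log2 ratio of the shares was −0.20 ± 0.17 (SD, n = 4). FN1, COL1A1 and COL1A2, which encode fibronectin and the chains of type I collagen, made up 0.881 to 6.27% of all counts in untreated libraries and 10.3 to 14.4% in treated ones. With these 3 genes left out of the total, the ribosomal shares were 4.79%, 4.66%, 4.64% and 4.15% before treatment and 4.47%, 4.37%, 3.91% and 4.71% after it, with a mean log2 ratio of −0.06 ± 0.18 (SD, n = 4).

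**Figure D1:**
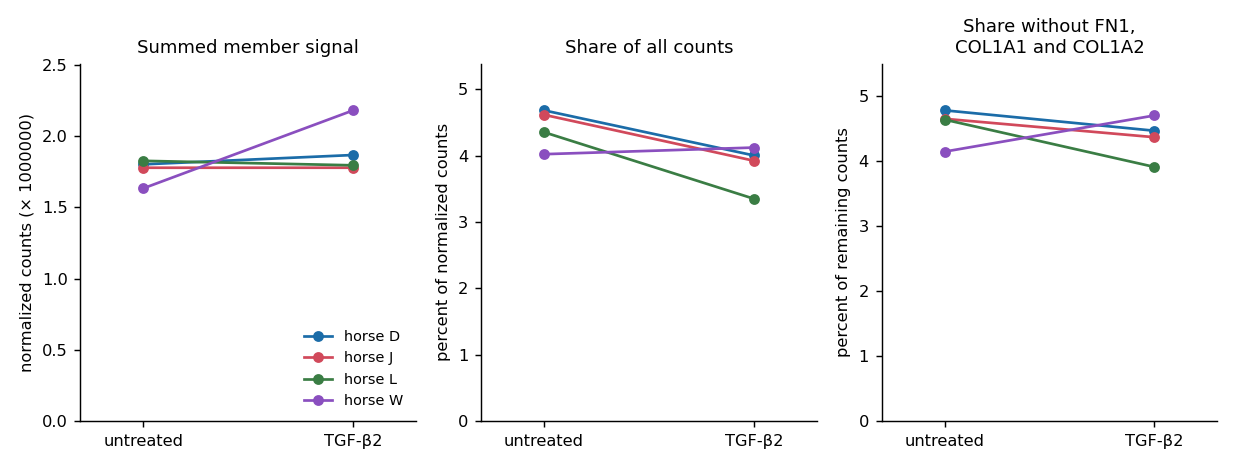
Summed signal of the 79 ribosomal protein genes in each library, untreated and with TGF-β2, in normalized counts (left), as a percent of all normalized counts (middle) and as a percent of the counts without FN1, COL1A1 and COL1A2 (right); each line joins the 2 libraries of 1 horse. The line of horse W goes up on every scale, and the shares of horses D, J and L go down, for example from 4.35 to 3.35% of all counts in horse L.

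No ribosomal protein gene passed the test between conditions. With limma's moderated test and the horse as a block, 0 of 79 had an adjusted p under 0.05, while 30.9% of all 14907 genes tested did, 15.7% higher and 15.3% lower. With an absolute log2 fold change over 1 as well, 0 of 79 passed against a background of 14.1%. At an unadjusted p under 0.05 there were 4 of the 79, namely RPS4X, RPS16, RPL4 and RPS27L, against 6607 of all 14907 genes tested. edgeR's quasi-likelihood test with the horse also called 0, and DESeq2 with the horse called those 4 genes, 3 higher and 1 lower, against a background of 38.7%. Without the horse block limma called 1, RPS4X, higher (adjusted p = 0.0447; background 22.8%).

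The fitted changes of the 79 genes were small and close to each other. The fitted log2 fold change had a median of 0.08 and ran from −0.51 for RPS27L to 0.37 for RPS4X, beside a median of 0.01 over all genes tested. The changes had an SD over genes of 0.13, against 1.05 for all genes tested. In absolute value, 64 of the 79 changes (81.0%) were under 0.2, compared with 31.6% of all genes, and 67 of the 79 were above 0. The median 95% interval reached 0.28 to either side of the estimate, so that a change of this size in a single gene was not detectable with 4 pairs. The 50 genes not named by the rule for single genes all lay between −0.03 and 0.24, with adjusted p of 0.183 or more.

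**Figure D2:**
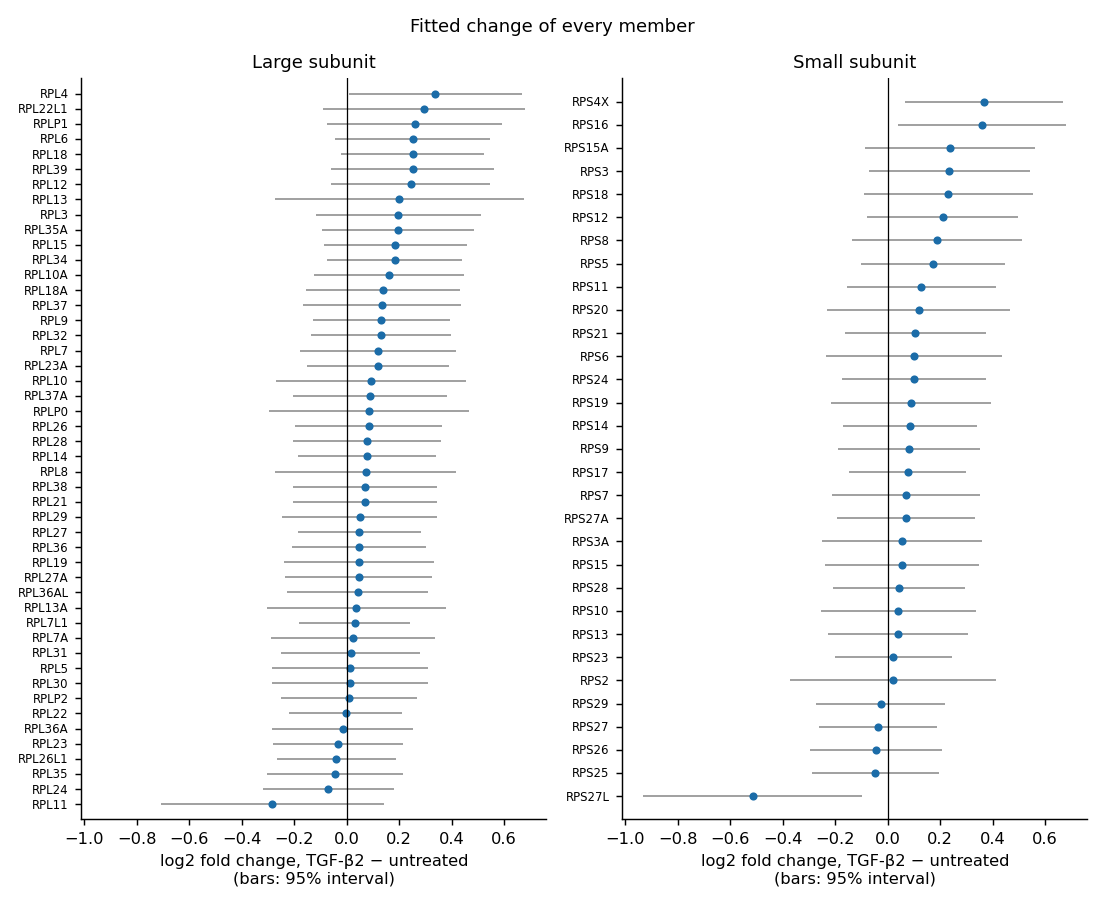
Fitted log2 fold change (TGF-β2 minus untreated, horse as a block) of each of the 48 large and 31 small subunit genes, with bars for the 95% interval. The points sit in a narrow band with a median of 0.08, and RPS27L at −0.51 and RPL11 at −0.28 lie apart on the lower side.

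Horse W carried the coordinated shift. The median log2 change of the 79 genes was 0.03 in horse D, −0.01 in horse J, −0.03 in horse L and 0.38 in horse W, whereas the median of all genes tested lay between −0.01 and 0.01 in every horse. In horse W 78 of the 79 changes were positive, against 48 in horse D, 37 in horse J and 29 in horse L. The largest change of the 4 horses was in horse W for 77 of the 79 genes, compared with 22.0% of all genes tested. Both libraries of that horse contributed, since the untreated one was the lowest of its group for 50 of the 79 genes (21.3% of all genes) and the treated one was the highest of its group for 72 (28.1% of all genes). The untreated library of horse W also had the fewest reads of its group, 40044240, and the highest summed mesenchymal markers, 309522 normalized counts, and the part of these in the shift was not tested. Without horse W the fitted median was −0.02, and limma called 0 of 79 genes at an adjusted p under 0.05 (background 8.51%). At an unadjusted p under 0.05 there was 1 of the 79, against 4613 of the 14453 genes tested in that fit.

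**Figure D3:**
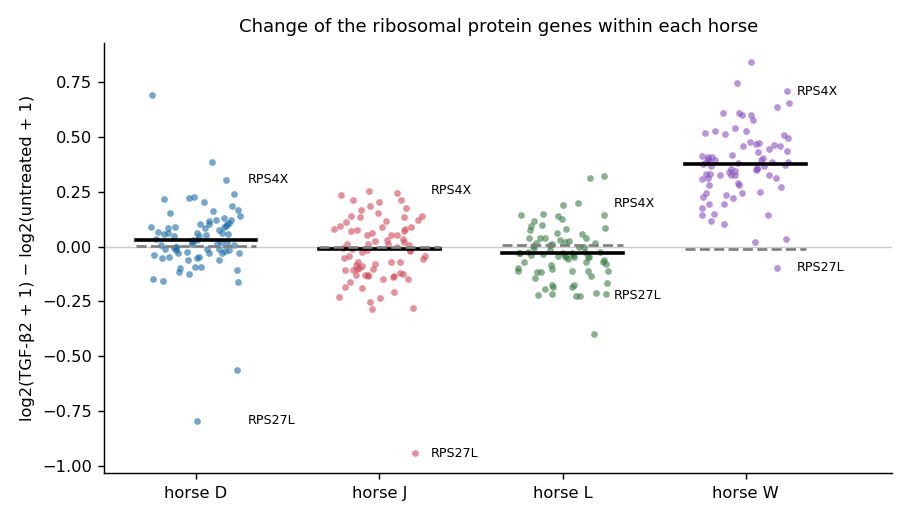
Log2 change of each ribosomal protein gene within each horse on the log2(normalized count + 1) scale; points are genes, solid bars the median of the 79 genes and dashed bars the median of all genes tested. The solid bar is at 0.38 in horse W and between −0.03 and 0.03 in the other horses, and RPS27L is the lowest point in horses D, J and W.

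Below that shift, the order of the genes was partly shared between horses. The log2 changes of the 79 genes had Spearman correlations of 0.13 (horses J and L) to 0.68 (horses D and W) between horses. These are descriptions across genes of 1 library pair each, and genes are not independent replicates. RPS4X was among the 3 largest changes in every horse, at positions 3, 1, 3 and 3 in horses D, J, L and W. RPS27L was last of the 79 in horses D, J and W and at position 76 in horse L.

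Small and large subunit genes had like medians. The median log2 fold change was 0.08 for both the 31 small and the 48 large subunit genes. The ratio of summed small to summed large subunit counts was 0.630, 0.642, 0.612 and 0.612 in untreated horses D, J, L and W, and 0.621, 0.627, 0.620 and 0.611 in the treated ones. These ranges overlapped throughout. Some small subunit proteins have symbols that the rule does not take. RACK1, the scaffold protein of the small subunit head, had a log2 fold change of 0.34 (adjusted p = 0.126), and RPSA one of 0.23 (adjusted p = 0.261). FAU, which encodes a ribosomal protein fused to a ubiquitin-like sequence, was at 0.01 (adjusted p = 0.915).

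Among the small subunit genes RPS4X had the largest fitted increase. RPS4X, which encodes an X-linked small subunit protein, measured 22328, 21629, 22350 and 18716 normalized counts in untreated horses D, J, L and W and 27602, 25802, 25634 and 30604 in the treated ones. Every treated library was above every untreated one, and horse W was both the lowest untreated and the highest treated library. The log2 fold change was 0.37 ± 0.12 (SE, 1.29-fold, adjusted p = 0.0701 by limma), and it was 0.25 (adjusted p = 0.187) without horse W. RPS16, whose protein tail reaches toward the decoding site, measured 19659, 19890, 18010 and 15818 normalized counts before treatment and 23182, 21915, 22375 and 26550 after it. Its groups did not overlap either, and the log2 fold change was 0.36 ± 0.13 (SE, adjusted p = 0.0856), or 0.23 (adjusted p = 0.218) without horse W.

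RPL4 led the large subunit genes. Its protein lines the tunnel through which the new chain leaves the ribosome. It measured 49373, 48975, 56764 and 46155 normalized counts in untreated horses D, J, L and W and 64496, 56741, 62766 and 70313 in the treated ones. All 4 horses were higher after treatment, but treated horse J was level with untreated horse L. The log2 fold change was 0.34 ± 0.13 (SE, adjusted p = 0.107). The paralog RPL22L1 came next at 0.29 (adjusted p = 0.199). RPLP1, RPL6, RPL18 and RPL39 followed with log2 fold changes of 0.26, 0.25, 0.25 and 0.25 and adjusted p of 0.194, 0.159, 0.136 and 0.179. Without horse W these 4 were at 0.14, 0.16, 0.16 and 0.12.

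A further view of the single genes is their direction in each horse. Of the 79 genes, 14 were higher in all 4 horses (background 26.3%), and 1, RPS27L, was lower in all 4 (background 25.6%). In 8 genes every treated library exceeded every untreated one, in 0 genes the reverse held, and in 27.8% of all genes the groups did not overlap in one direction or the other. The 8 genes were RPL12, RPL15, RPL18, RPL39, RPS3, RPS15A, RPS16 and RPS4X. RPL12, RPL15, RPS3 and RPS15A are named after their values were seen, with log2 fold changes of 0.24, 0.18, 0.24 and 0.24.

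RPS27L stood apart on the lower side. This paralog of RPS27 is a known target of the tumour suppressor p53. It measured 5096, 7073, 3408 and 3589 normalized counts in untreated horses D, J, L and W and 2937, 3677, 2921 and 3357 in the treated ones. The difference was wide in horses D and J, which were high before treatment, and slight in horses L and W, so that the treated libraries lay close together while the groups overlapped. The log2 changes within horses were −0.79, −0.94, −0.22 and −0.10, and the fitted log2 fold change was −0.51 ± 0.17 (SE, 0.700-fold, adjusted p = 0.0677 by limma). The adjusted p was 0.0319 by DESeq2 with the horse, 0.0754 by edgeR, 0.142 without the block and 0.114 without horse J.

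The parent gene of RPS27L was nearly level. RPS27 measured 14401, 12487, 15276 and 16125 normalized counts before treatment and 13804, 12555, 13353 and 17336 after it (log2 fold change −0.04 ± 0.09 SE, adjusted p = 0.788). The ratio of RPS27L to RPS27 counts went from 0.354 to 0.213 in horse D, from 0.566 to 0.293 in horse J, from 0.223 to 0.219 in horse L and from 0.223 to 0.194 in horse W. It was lower after treatment in 4 of 4 horses, by little in horse L. When every library was scaled to the same summed ribosomal protein signal, which takes out the shared shift, limma called 1 of the 79 genes, RPS27L, at a log2 fold change of −0.63 ± 0.16 (SE, adjusted p = 0.0302; background 23.7%). On that scale RPS4X, RPS16 and RPL4 had log2 fold changes of 0.26, 0.25 and 0.23 and adjusted p of 0.176, 0.196 and 0.268.

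**Figure D4:**
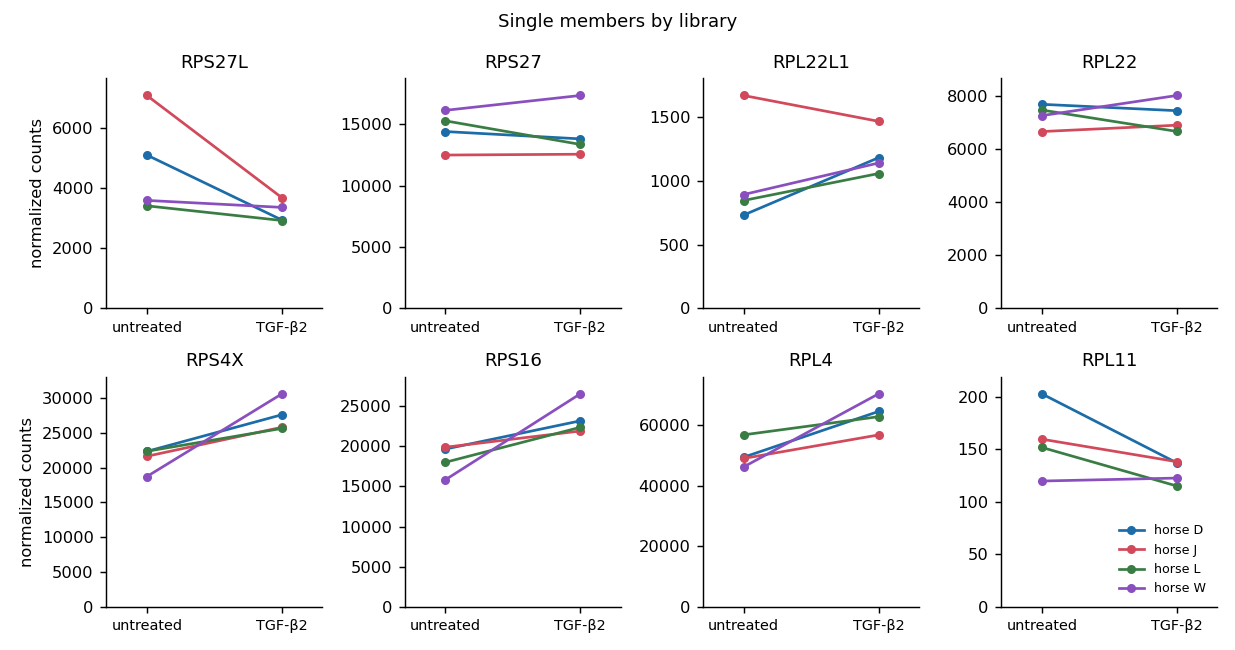
Normalized counts of 8 single genes in each library, untreated and with TGF-β2, with lines joining the libraries of 1 horse and axes from 0. RPS27L goes from 7073 to 3677 in horse J while RPS27 lies between 12487 and 17336 in all libraries, and every treated library of RPS4X lies above every untreated one.

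RPL22L1, the paralog of RPL22, was higher after treatment in 3 of 4 horses. It measured 730, 1666, 844 and 891 normalized counts in untreated horses D, J, L and W and 1179, 1463, 1055 and 1138 in the treated ones. Horse J was the highest library in both groups and the only horse with a lower treated value. The log2 fold change was 0.29 ± 0.16 (SE, adjusted p = 0.199). Without horse J it was 0.46 and passed the limma test (adjusted p = 0.0347), in a fit that called 5227 of all genes tested. Without horse D, L or W it was 0.16, 0.29 and 0.28 and did not pass (adjusted p = 0.532, 0.356 and 0.401). RPL22 itself was at 0.997-fold (95% interval −0.22 to 0.21 on the log2 scale, adjusted p = 0.976), with 6656 to 7681 normalized counts untreated and 6661 to 8013 treated.

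The other 3 paralogs did not differ between conditions beyond the spread between horses. RPL7L1, which acts in large subunit assembly, had a log2 fold change of 0.03, RPL36AL one of 0.04 and RPL26L1 one of −0.04, with adjusted p of 0.804, 0.793 and 0.765. Their parent genes RPL7, RPL36A and RPL26 were at 0.12, −0.02 and 0.08, with adjusted p of 0.483, 0.925 and 0.599. RPL26L1 and RPL36AL are near-identical to their parents in protein sequence, so reads between them may have been split or dropped by counting unique hits, and their values are uncertain to that extent.

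All 5 paralogs were highest in horse J in both conditions, a pattern noticed after the values were seen. For RPL26L1 in treated cells horse J, at 1579 normalized counts, was nearly level with horse W at 1574. The pattern held for 6 of the 79 genes, the sixth being RPL36, and for 15.2% of all genes tested. The 5 paralogs together made up 0.834%, 1.18%, 0.691% and 0.781% of the ribosomal protein signal in untreated horses D, J, L and W. In treated cells they made up 0.742%, 0.877%, 0.709% and 0.634%, again with horse J highest. Untreated horse J is also the library with the raised leukocyte markers, among them 2437 normalized counts of CD68, 110 of PTPRC and 112 of CD3E, and the part of these in the paralog levels was not tested.

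RPL11 and RPL5, which with 5S ribosomal RNA can bind and inhibit MDM2, were both within the error. RPL11 measured 203, 160, 152 and 120 normalized counts in untreated horses D, J, L and W and 137, 138, 115 and 123 in the treated ones. These are far fewer counts than for any other of the 79 genes, the next lowest being RPL22L1 with at least 730, and whether reads of RPL11 were counted under another locus or dropped was not tested, so its values are uncertain as a level of the gene. It was lower in horses D, J and L and nearly level in horse W, with a log2 fold change of −0.28 ± 0.17 (SE, adjusted p = 0.254). RPL5 had 34503 to 41883 normalized counts untreated and 35841 to 42664 treated, with a log2 fold change of 0.01 ± 0.12 (SE, adjusted p = 0.945). RPS6, the substrate of the S6 kinases downstream of mTORC1, was at 0.10 ± 0.13 (SE, adjusted p = 0.601).

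The stalk proteins, which recruit elongation factors to the large subunit, also differed little. RPLP0 ranged from 71578 to 83778 normalized counts untreated and from 66746 to 105604 treated, with the highest value in treated horse W. The log2 fold changes of RPLP0, RPLP1 and RPLP2 were 0.09, 0.26 and 0.01, with adjusted p of 0.703, 0.194 and 0.962. RPLP1 was higher after treatment in 4 of 4 horses, whereas RPLP2 was lower in horses D and J. RPS2 and RPL3, a small subunit protein at the mRNA entry and a large subunit protein near the catalytic centre, were at 0.02 and 0.20 (adjusted p = 0.934 and 0.281).

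RPL13 showed a wide spread with no common direction. It measured 27009, 31418, 25688 and 18752 normalized counts in untreated horses D, J, L and W and 27012, 26716, 29332 and 33592 in the treated ones. Its log2 change was 0.84 in horse W, the largest of any of the 79 genes in that horse, and −0.23 in horse J, for a fitted value of 0.20 ± 0.19 (SE, adjusted p = 0.460). At the lower end, RPL24, RPL35, RPS25 and RPS26 had log2 fold changes of −0.07, −0.04, −0.05 and −0.04, and each was lower after treatment in horses D and L and higher in horse W.

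Across the untreated horses, most ribosomal protein genes varied little. The coefficient of variation over the 4 untreated libraries had a median of 7.61% over the 79 genes and of 22.5% over all genes tested. It was under 10% for 62 of the 79, compared with 16.1% of all genes. It was highest for RPL22L1 at 41.4% and RPS27L at 35.5%, followed by RPL36AL at 21.7%, RPL11 at 21.6% and RPL13 at 20.4%. RPS2 reached 18.1%, with 88766 normalized counts in untreated horse J and 57339 in untreated horse W.

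Among the genes that build ribosomes, many rose. Of 46 ribosome biogenesis genes, limma called 23 higher and 0 lower, against 15.7% higher and 15.3% lower over all genes tested. The median log2 fold change was 0.40, beside 0.01 for all genes tested and 0.08 for the 79 ribosomal protein genes. The median within horses D, J, L and W was 0.59, 0.18, 0.27 and 0.60. RRP9, a U3 snoRNP protein, had a log2 fold change of 0.98 (adjusted p = 0.0448), and NOLC1, a nucleolar chaperone of snoRNPs, one of 0.87 (adjusted p = 0.0141). The number called fell to 10 without the horse block (background 22.8%) and to 12 without horse L, where 2815 of all genes tested were called. Scaling libraries to their totals gave 3 higher and 2 lower, against 1192 higher and 5244 lower of all 14907 genes. Without horse D or without horse W 0 of the 46 were called, against 1383 and 1230 of all genes. In those fits 20 and 21 of the 46 had an unadjusted p under 0.05, against 4610 and 4613 of all genes.

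The factors that work with the ribosome were mostly within the error, and their counts are read against the same background of 15.7% higher and 15.3% lower. Of 36 initiation factor genes, 8 were higher and 0 lower (median 0.13), a share not far from that background, with EIF1 at 0.90 (adjusted p = 0.00912) and EIF5, which triggers GTP hydrolysis on the initiating ribosome, at 0.77 (adjusted p = 0.0160). Without horse D or without horse W 0 of the 36 were called, against 1383 and 1230 of all genes tested. In those fits 8 and 9 of the 36 had an unadjusted p under 0.05, against 4610 and 4613 of all genes. The count was 3 without horse L, against 2815 of all genes. Scaling to totals gave 1 higher and 12 lower, against 1192 higher and 5244 lower of all 14907 genes. Of 9 elongation factor genes 1 was higher, EEF1D at 0.40 (adjusted p = 0.0317), and the median was 0.34. DESeq2 with the horse called 5 of the 9 higher, against 2891 of all 14907 genes. With limma 2 were called without horse J, against 5227 of all genes, and 0 without any other horse. In the fits without horse D, L or W 1 to 2 had an unadjusted p under 0.05, against 4610 to 5382 of all genes. Of 23 other mRNAs with a TOP tract 3 were higher and 0 lower (median 0.15), among them NPM1 at 0.40 (adjusted p = 0.0364), a share near the background. The 3 calls became 1 without the block (background 22.8%), 2 without horse J and 0 without horse D, L or W. In the fits without horse D, L or W 3 to 4 of the 23 had an unadjusted p under 0.05, against 4610 to 5382 of all genes. Scaling to totals gave 0 higher and 8 lower, against 1192 higher and 5244 lower of all genes. In horse W the medians of the elongation factors and of the other TOP mRNAs were 0.60 and 0.36, and in the other horses they lay between 0.20 and 0.30 and between 0.05 and 0.08.

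The mitochondrial ribosome is a separate particle with its own proteins. Of 73 mitochondrial ribosomal protein genes 4 were higher and 6 lower, a smaller share than the 30.9% of all genes called. The median log2 fold change was 0.02 and the range ran from −0.61 to 0.80. MRPL20 and MRPL17 were the highest at 0.80 and 0.57 (adjusted p = 0.0135 and 0.0343). MRPS18B and MRPL45 were the lowest at −0.61 and −0.61 (adjusted p = 0.00921 and 0.0215). The count called was 0 without horse D, 5 without horse L, 16 without horse J and 1 without horse W. Of all genes tested 1383, 2815, 5227 and 1230 were called in those fits.

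**Figure D5:**
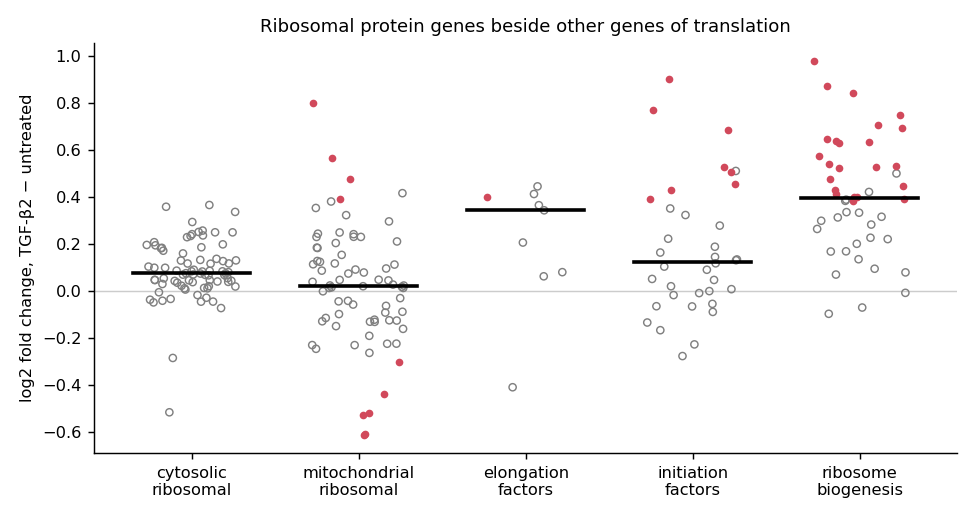
Fitted log2 fold change of each gene in 5 groups of translation genes; filled red points passed adjusted p under 0.05, open points did not, and bars are medians. The cytosolic ribosomal protein genes are all open and centre on 0.08, while the ribosome biogenesis genes centre on 0.40 with 23 filled points.

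Among regulators of TOP mRNAs and mTORC1, 1 of 16 genes was higher and 3 were lower, a share near the 30.9% of all genes called. Without horse D or W 0 of the 16 were called. In each of those fits 4 had an unadjusted p under 0.05, against 4610 and 4613 of all genes tested. Without horse J 7 were called, against 5227 of all genes. EIF4EBP1, the translation repressor that mTORC1 inactivates, had a log2 fold change of 1.56 ± 0.29 (SE, adjusted p = 0.0152) and was higher in 4 of 4 horses. Its relative EIF4EBP2 was at −0.62 (adjusted p = 0.0217), and TSC1, a subunit of the complex that restrains mTORC1, was at −0.67 (adjusted p = 0.0125). Of 16 p53 target genes, the group to which RPS27L also belongs, 2 were higher and 4 lower, again near the 30.9% background. TP53I3 and XPC were at −1.23 and −1.14 (adjusted p = 0.0135 and 0.00487), and FDXR was at 0.54 (adjusted p = 0.0405). GDF15 was at 3.17 (adjusted p = 0.0281), with untreated counts of 0 in horses L and W, so that its size depends on the added count of 1. The p53 target median within horses D, J, L and W was −0.73, −0.51, −0.17 and 0.09, beside −0.79, −0.94, −0.22 and −0.10 for RPS27L. The fitted changes within this list ran from −1.23 to 3.17, and any part of p53 in the change of RPS27L was not tested. The p53 target count was 1 without horse W and 3 without horse D or horse L, against 1230, 1383 and 2815 of all genes tested.

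The direction of the small shift depended on how the libraries were scaled. When libraries were scaled to their total counts, the median of all genes tested moved to −0.30 and that of the 79 ribosomal protein genes to −0.24. On that scale 0 of the 79 were called higher and 15 lower (background 35.2% lower), among them RPS27L at −0.83, and none of the 14 that were higher in every horse remained so. Scaling moves all genes of a library together, so the gap between the 79 genes and the median of all genes stays alike by arithmetic. It is no further result. Horses D, J and L again stood below horse W. RPS27L was lower on the size-factor, total and ribosomal protein scales alike, whereas the log2 fold changes of RPS4X, RPS16 and RPL4 dropped to 0.05, 0.05 and 0.03 when libraries were scaled to their totals. Both follow from the size-factor values, since the other scalings lower the fitted change of every gene.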

How the data were processed

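Poly(A)-selected RNA had been sequenced from BM-MSCs of 4 horses, grown without and with TGF-β2. Per the labels and the methods, the authors used Trimmomatic 0.36 for trimming, STAR 2.5.2b for alignment to EquCab 3.0, and counted unique hits per gene with featureCounts (Subread 1.5.2). They deposited counts divided by a DESeq2 size factor, so the deposited unit is a normalized signal. Of 15267 rows, 1 had no gene name (0.0281 to 0.0531% of counts) and was left out. Whether the counting used strand is not given in the sources used here. Such scaling moves every gene of a library together. Strictly comparable levels between genes need lengths, which were not used here, so levels were compared within a gene.

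Dividing each value by the value of 1 read gave whole reads for 100% of values (tolerance 0.01), which the count tests used. The main test was limma 3.58.1 (lmFit, eBayes with trend, R 4.3.3) on log2(normalized count + 1), with the horse as a block, over the 14907 genes that reached 10 normalized counts in 4 or more libraries. Benjamini-Hochberg adjusted p under 0.05 made a call, and fold changes are on that log2 scale. The paper's methods name no donor term. The block was used because each marrow was split, and the deviations of libraries of the same horse from their group means correlated at 0.386 to 0.609 (4 pairs) against −0.400 to 0.116 for different horses (12 pairs). Deviations from a group mean cancel over the libraries of that group. Positive values for the same horse therefore push those for different horses down by arithmetic, and the negative values are no further reason for the block. With 1 culture per horse and condition, p-values of the fits with the block weigh the change within horses against its spread between horses. That spread cannot be parted from differences between cultures and libraries.

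Alternatives were no block, pseudocounts of 0.5 and 5, no filter and a filter at 50, scaling to totals (also without FN1, COL1A1 and COL1A2), to the summed ribosomal protein signal, by TMM and by upper quartile, edgeR 4.0.16 with a horse term, DESeq2 1.42.0 with one and without, variances without a trend, an adjusted p under 0.01, and each horse left out. The tests were checked on simulated counts. The ribosomal genes, the other lists and the markers were chosen with earlier results of these data known. Single genes named were the 8 highest and 8 lowest fold changes, paralogs and their parents, the stalk genes, RPL5, RPL11 and RPS6, the 4 genes with the most and the 4 with the fewest counts, the 5 most variable in untreated cells, up to 2 called genes per direction of each other list and subunit genes outside the rule, of which 1 is not reported here. Medians, sums and shares carry no test. No sequences or coordinates are printed, since a genome or annotation of EquCab 3.0 was not used here. Gene symbols were matched to RefSeq for the biotype only.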

Additional observations from a re-analysis of the deposited data

Results flagged for a closer look

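Over 68 groups of 4 libraries or horses, 3 had 1 value far from the others by Dixon's ratio at its 95% critical value. Chance alone flags about 1 in 20 such groups. In the treated group, RPL18 was 32405 normalized counts in horse W, against 25443 to 25748 in the other horses. RPS26 was 15312 normalized counts in treated horse W, against 12110 to 12564 in the others. In the untreated group, RPL18 was 23477 normalized counts in horse L, against 22543 to 22652 in the others, a gap that is small beside the level of the gene.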

How the results depend on the processing

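The alternatives for the lists beside the ribosomal protein genes were chosen after seeing the data, and those for the ribosomal protein genes were set with earlier results known. The number of ribosomal protein genes called, 0, became 1 with no replicate block, 15 with scaling to totals, 1 with totals without FN1, COL1A1 and COL1A2, 1 with scaling to the summed ribosomal protein signal, 4 and 3 with DESeq2 with and without the horse, and 0 to 1 over the fits without 1 horse. It stayed at 0 under the other pseudocounts and filters, TMM and upper quartile scaling, no trend, edgeR and adjusted p under 0.01. With an absolute log2 fold change over 1 it was 0 in every fit. The paired fit with the horse as a block and the one without gave 4610 and 3403 genes called of all tested, and 2108 and 1709 with the fold threshold. Without 1 horse these counts ran from 1230 to 5227 and from 923 to 2203, and at adjusted p under 0.01 they were 1516 and 1116.

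Scaling to totals turned the median of the ribosomal protein genes to −0.24, the small and large subunit medians to −0.23 and −0.24 and the summed log2 ratio to −0.20. Genes higher in all 4 horses then numbered 0 and lower 40, or 1 and 13 with the matrix genes left out of the total. The same counts over all genes are not given for those 2 scales. The median of all genes tested was itself at −0.30 and −0.17 there, so these counts are no result about the ribosomal protein genes. Totals hold the matrix genes, whose share is higher in treated libraries. Without horse W the summed log2 ratio was 0.01 and the median −0.02.

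Ribosome biogenesis genes called higher, 23, became 10 without the block, 3 with scaling to totals, 8 without the matrix genes in the total, 6 with the ribosomal protein scaling, 13 with no trend, 15 with DESeq2 without the horse, 0 at adjusted p under 0.01 and 0 to 28 without 1 horse. Initiation factors called higher, 8, became 1, 3 and 3 under those 3 scalings, 1 at adjusted p under 0.01 and 0 to 8 without 1 horse. Mitochondrial ribosomal protein genes called, 10, became 30 and 16 with the totals, 2 at adjusted p under 0.01 and 0 to 16 without 1 horse. The p53 targets called, 6, became 10 with scaling to totals, 1 at adjusted p under 0.01 and 1 to 5 without 1 horse. These counts are read beside those of all genes tested, either direction, which also moved. The 4610 called became 6436 with scaling to totals, 4998 without the matrix genes in the total and 3536 with the ribosomal protein scaling. They became 3403 without the block, 3902 with no trend and 4605 with DESeq2 without the horse. At adjusted p under 0.01 there were 1516, and without 1 horse 1230 to 5227.

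With scaling to totals the log2 fold change changed sign for RPL13 (−0.11), RPL18 (−0.061), RPL22L1 (−0.017), RPL26 (−0.23), RPL3 (−0.11), RPL36AL (−0.27), RPL39 (−0.061), RPL5 (−0.30), RPL6 (−0.060), RPL7 (−0.19), RPL7L1 (−0.28), RPLP0 (−0.23), RPLP1 (−0.054), RPLP2 (−0.30), RPS2 (−0.29) and RPS6 (−0.21). With the matrix genes left out of the total the log2 fold change changed sign for RPL26 (−0.090), RPL36AL (−0.13), RPL5 (−0.16), RPL7 (−0.056), RPL7L1 (−0.14), RPLP0 (−0.089), RPLP2 (−0.17), RPS2 (−0.15) and RPS6 (−0.074). With scaling to the summed ribosomal protein signal the log2 fold change changed sign for RPL26 (−0.027), RPL36AL (−0.069), RPL5 (−0.098), RPL7L1 (−0.080), RPLP0 (−0.026), RPLP2 (−0.10), RPS2 (−0.091) and RPS6 (−0.011). With TMM scaling the log2 fold change changed sign for RPL22 (0.0013). With upper quartile scaling the log2 fold change changed sign for RPL22 (0.0075). Over the fits without 1 horse, the genes that changed sign ranged from −0.014 to 0.34 for RPL13, −0.053 to 0.050 for RPL22, −0.010 to 0.15 for RPL26, −0.085 to 0.023 for RPL26L1, −0.11 to 0.042 for RPL36A, −0.026 to 0.15 for RPL36AL, −0.058 to 0.092 for RPL5, −0.0068 to 0.087 for RPL7L1, −0.040 to 0.15 for RPLP0, −0.073 to 0.064 for RPLP2, −0.11 to 0.12 for RPS2, −0.10 to 0.0092 for RPS25, −0.12 to 0.017 for RPS26, −0.082 to 0.017 for RPS27 and −0.021 to 0.17 for RPS6. None of these genes passed the main test. Each scaling moves all genes of a library together on the log2 scale. A fold change smaller than that move and opposite to it therefore changes sign. The cause of the changes in the fits without 1 horse was not tested.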
